A study of Mus musculus with 2 samples.

Results

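The 1000 strongest open chromatin sites away from annotated transcription start sites were described in the mouse hippocampus, out of 45694 such sites found in both replicates of the study. DNase I cuts DNA where chromatin is open, and DNase-seq reads the cut ends. The data were 2 biological replicates of hippocampal tissue from male B6CASTF1/J mice, which are C57BL/6 by CAST/EiJ hybrids, at 14 days of age, with no second group. The labels call the tissue a hippocampal layer without saying which, speak of 3 males and carry a single donor identifier, and how the animals were divided between the replicates is not stated. A shared site was a pair of peaks, 1 of each replicate, that overlapped by at least 1 bp and were each other's longest overlap. Of 70751 such pairs, 45694 (64.6%) lay more than 1 kb from every start site of GENCODE M21. The 1000 pairs (2.19%) with the highest geometric mean of the authors' value per peak were taken as members, and the 44694 remaining distal pairs served as the comparison. The members were thus chosen by these measured values, which are described below without a test. Of the members 979 had at most 50% of their 32-base words repeated in the genome, and 21 had more.

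Distal open sites include enhancers, which bind transcription factors and act on promoters from a distance. They also include insulators bound by CTCF, a zinc finger protein that anchors chromatin loops. Genes of RNA polymerase III, such as tRNA genes, are open as well and are bound inside the gene by the factor TFIIIC, which recognises the A box and the B box. Start sites rich in CpG dinucleotides are open in many cell types.

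Sequences of the main kinds of member follow, read from RefSeq GRCm38.p6 (mm10), each 5′ to 3′ on the strand named. The 5 highest members with a match to the 12-base CTCF core are shown with 12 flanking bases on each side and the match in capitals. They lay at chr11:98342775-98342810 (plus strand), chr7:73618503-73618538, chr14:51064949-51064984, chr4:151141709-151141744 and chr10:84438192-84438227 (all minus strand).
Ppp1r1b CTCF: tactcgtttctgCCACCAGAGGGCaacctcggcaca
Chd2 CTCF: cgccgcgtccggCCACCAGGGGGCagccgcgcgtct
Olfr750 CTCF: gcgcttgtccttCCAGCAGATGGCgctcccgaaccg
Camta1 CTCF: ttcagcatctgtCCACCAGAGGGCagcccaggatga
Nuak1 CTCF: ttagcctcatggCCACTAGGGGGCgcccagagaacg

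The 3 highest members over a tRNA gene are shown with 60 bases upstream and the gene in capitals, at chr8:94704004-94704146 (minus), chr11:107012806-107012938 (plus) and chr7:35234770-35234903 (minus). All 3 genes hold the letters GTTCGANNC, which were searched as the B box.
n-TLcag4 tRNA-Leu: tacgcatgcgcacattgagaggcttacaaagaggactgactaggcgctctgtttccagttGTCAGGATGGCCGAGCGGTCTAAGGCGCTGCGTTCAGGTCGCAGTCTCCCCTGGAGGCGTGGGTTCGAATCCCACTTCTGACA
n-TRccg1 tRNA-Arg: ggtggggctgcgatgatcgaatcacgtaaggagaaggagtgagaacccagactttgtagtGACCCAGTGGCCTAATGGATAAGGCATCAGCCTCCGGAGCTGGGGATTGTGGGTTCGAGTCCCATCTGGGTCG
n-TTagt9 tRNA-Thr: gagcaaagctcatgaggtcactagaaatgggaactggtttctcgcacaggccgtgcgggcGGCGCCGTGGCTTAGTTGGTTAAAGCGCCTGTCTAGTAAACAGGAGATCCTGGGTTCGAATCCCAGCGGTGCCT

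A CpG-rich member and a member near an immediate early gene are shown by their central 200 bases on the plus strand. The highest CpG-rich one with unrepeated sequence lay nearest Ptma, at chr1:86487501-86487700, with its CG dinucleotides in capitals. The other lay downstream of Fos, at chr12:85486021-85486220, with a match to the Srf motif (bases 94 to 103) and a match to the Egr motif GCGNGGGCG on the other strand (bases 171 to 179) in capitals.
Ptma CpG: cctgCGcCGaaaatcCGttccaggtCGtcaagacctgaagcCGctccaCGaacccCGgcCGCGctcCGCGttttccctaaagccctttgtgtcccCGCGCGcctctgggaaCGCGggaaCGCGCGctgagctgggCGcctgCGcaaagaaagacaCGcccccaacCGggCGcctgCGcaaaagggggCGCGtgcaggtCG
Fos Egr: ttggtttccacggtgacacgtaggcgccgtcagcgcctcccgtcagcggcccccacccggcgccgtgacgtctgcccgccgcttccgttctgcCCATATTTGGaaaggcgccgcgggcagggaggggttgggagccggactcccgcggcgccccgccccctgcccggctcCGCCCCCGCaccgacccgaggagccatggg

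A pair of sequences carries the top of the ranking. The member in an exon of Lars2, at chr9:123461881-123462140, has in capitals the 257 bases that lie in a repeated 32-base word. The member in an exon of Cers5, at chr15:99735761-99735960 for its central 200 bases, has none repeated, and its capitals mark a match to the Spi1 motif GAGGAAGT on the other strand (bases 70 to 77) and an E-box CAGATG (bases 178 to 183).
Lars2: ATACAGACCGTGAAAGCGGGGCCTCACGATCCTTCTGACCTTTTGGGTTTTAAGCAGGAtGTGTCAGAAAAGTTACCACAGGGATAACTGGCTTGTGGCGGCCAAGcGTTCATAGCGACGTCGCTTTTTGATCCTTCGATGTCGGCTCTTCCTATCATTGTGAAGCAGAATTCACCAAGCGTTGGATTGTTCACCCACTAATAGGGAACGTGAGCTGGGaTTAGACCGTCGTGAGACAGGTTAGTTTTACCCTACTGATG
Cers5: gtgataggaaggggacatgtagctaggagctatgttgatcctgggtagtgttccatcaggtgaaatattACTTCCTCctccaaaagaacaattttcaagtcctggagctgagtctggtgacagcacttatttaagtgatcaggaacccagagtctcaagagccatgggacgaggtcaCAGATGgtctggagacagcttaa

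The members' values in replicate 1 ran from 2.24 to 30.9 with a median of 3.34, against a median of 0.686 for the other distal pairs. In replicate 2 they ran from 2.53 to 43.7 with a median of 3.99, against 0.717. The unit of this value is not stated in the sources used here, and in whole tissue a site open in more cells and one open more strongly in fewer cells cannot be told apart. Members were 0.869% of the peaks of replicate 1 and held 3.41% of its summed value, and in replicate 2 they were 1.04% of the peaks and held 3.87%. The threshold fell in a continuous range. Members just inside it, nearest Vmn2r1 (2.39 in replicate 1 and 3.64 in replicate 2) and Rab11fip4 (2.88 and 3.02), had about the values of the highest pairs left out, nearest Ift81 (2.62 and 3.33), Csrp1 (2.89 and 3.01) and Shh (2.80 and 3.11). The geometric means on the 2 sides of the threshold were 2.95 for both.

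**Figure D1:**
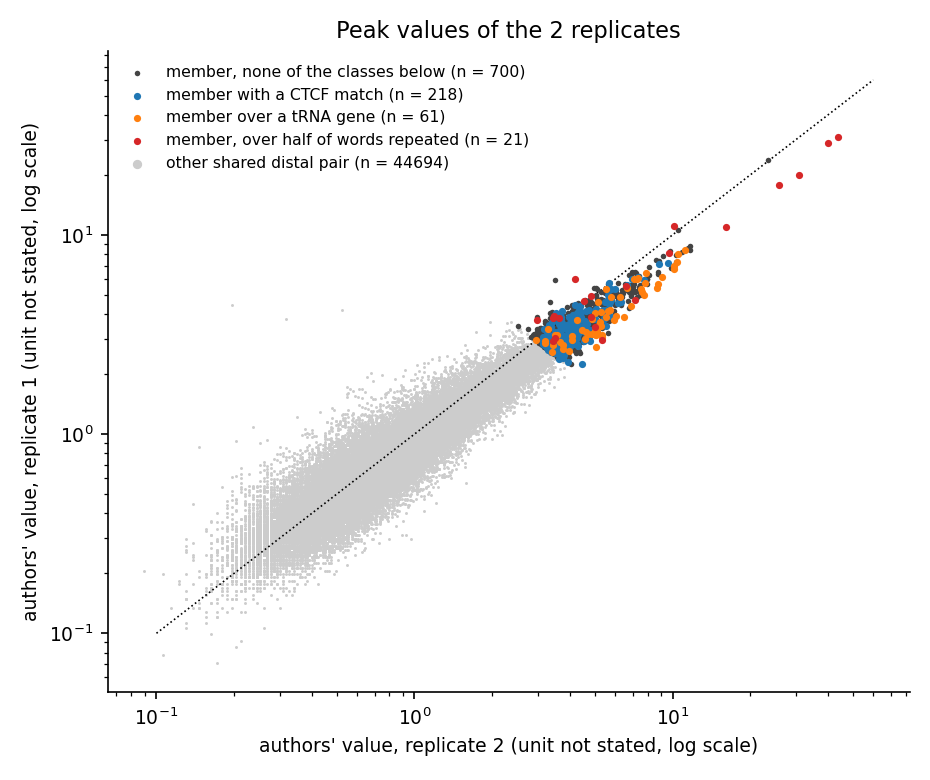
Authors' value per peak in replicate 1 (vertical) against replicate 2 (horizontal), both on log scales with no stated unit, with 1 point per shared distal pair and a dotted line of equal values. Coloured and dark points are the 1000 members by class and grey points the 44694 other pairs. Most members lie below the line, and 6 of the 7 highest are repeated in sequence.

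Other readouts of the same libraries ran with these values, so they are given as description. A footprint, a short protected stretch called by the authors, lay in 99.9% of members in both replicates, against 67.6% of the other pairs. Members had a median of 4 footprints in each replicate, against 2 in replicate 1 and 1 in replicate 2 for the other pairs. All 1000 members stood in the authors' shorter peak list in both replicates, against 44.8% of the others. The median log10 of the lowest false discovery rate under a member was -26.8 in replicate 1 and -24.4 in replicate 2, against -4.23 and -3.36 under the other pairs.

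The very highest members had repeated sequence. Repeated members, with over 50% of their 32-base words at 2 or more genome positions on either strand, were 21 of 1000 (2.1%, exact 95% binomial interval 1.30% to 3.19%), against 0.953% of the other pairs. The share was 0.3% at ranks 4001 to 8000 but 1.90% in the weakest 13694 pairs, inside the members' interval. Repeated members took 6 of the first 7 ranks and had no tRNA gene. The highest, nearest the gene model Gm8797 (chr3:5860361-5860530), had 30.9 in replicate 1 and 43.7 in replicate 2. The second lay in an exon of Lars2, the mitochondrial leucyl-tRNA synthetase, with 28.8 and 39.9, and the third in an intron of the cytokine receptor gene Il31ra, with 19.9 and 30.8. The next were nearest Igf2bp3, which encodes an RNA-binding protein (17.8 and 25.7), and in an intron of Gphn, which encodes gephyrin, a scaffold of inhibitory synapses (11.0 and 16.2). These gene names give only the position of the sites.

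These 5 members had counterparts on many chromosomes. Their repeated words occurred on 11 other chromosomes, contigs not counted, for Gm8797 and Il31ra, on 9 for Gphn and on 8 for Lars2 and Igf2bp3. The Lars2, Igf2bp3 and Gphn members shared words with each other. The printed Lars2 sequence resembles ribosomal RNA of the large subunit by eye, which was not tested, so the values of these sites may not belong to the genes named. Among all 21 repeated members, 8 fell into 3 families that shared words and 13 shared none with another member. None had a word in the mitochondrial genome, and 0 of the 1000 members did. How the authors placed reads that match several positions is not given in the sources used here, and its part in these values was not tested.

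A second repeated group lay at the distal end of chromosome X, in and beside Mid1 and Gm21887. Mid1 encodes a ubiquitin ligase and in C57BL/6 mice spans the boundary of the region that X and Y share. The 5 members there (chrX:169990201-170020220) had 100% of their words on chromosome Y as well. The highest had 11.0 in replicate 1 and 10.1 in replicate 2, and the next 5.99 and 4.20. The others had 3.94 and 3.46, 3.82 and 3.45, and 3.75 and 2.99. All 5 were higher in replicate 1, by ratios of 1.09 to 1.43. Of all 1000 members 91 (9.1%) were, and of the other distal pairs 38.8%. The 4 unrepeated members on X had ratios of 0.668 to 0.906.

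Some members shared words with Rn4.5s, the gene of a small rodent RNA made by RNA polymerase III, annotated by RefSeq at chr6:47654921-47655094, although none overlapped that position. The repeated member nearest Pdia4 (chr6:47748421-47748580; 4.69 in replicate 1 and 7.16 in replicate 2) had 79.1% of its words in Rn4.5s. The member nearest Ezh2 (chr6:47650761-47651000; 7.33 and 10.3) had 27.3% there. A further 5 members, 4 of them nearest Klrb1c, had between 0.873% and 7.46%.

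The highest members with unrepeated sequence were of several kinds. The Cers5 exon member (chr15:99735661-99736060), in the gene of a ceramide synthase, had 23.7 in replicate 1 and 23.4 in replicate 2. It had 1 footprint in each replicate and a GC content of 46.5%. The next, in an exon of the ubiquilin gene Ubqln1 (chr13:58177601-58177840), had 10.5 in both replicates and the lowest GC content of all members, 38.5%. These 2 sites were unlike those after them in base composition and in having nearly equal values in the replicates.

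The following members were mostly CpG-rich. The member 39.1 kb from the start of Ptma, which encodes the abundant nuclear protein prothymosin alpha, had 8.85 in replicate 1 and 11.7 in replicate 2. Those nearest Zfp239 (8.62 and 11.5), the forkhead gene Foxk1 (8.41 and 11.7) and Pum2, which encodes an RNA-binding protein (8.23 and 10.9), and in an exon of C87436 (8.26 and 9.74) had GC contents of 64.5% to 70.0%. Among the 12 highest unrepeated members, 10 were CpG-rich and 3 lay over a tRNA gene: n-TLcag4 (8.41 and 11.2), n-TRccg1 (8.0 and 10.5) and n-TTagt9 (7.31 and 10.4).

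Nuclear tRNA genes, which GENCODE M21 does not list as genes of that type, lay under 61 members (6.1%, 4.70% to 7.77%), against 0.237% of the other distal pairs. RefSeq had 403 of them, of which 315 lay over 1 kb from a GENCODE start, 172 of these overlapped a shared pair, and 64 overlapped a member. Of the tRNA genes with a shared pair, 37.2% thus had one among the members, although members were 2.19% of all pairs. They served 19 of 20 amino acids. Leucine had 8, and arginine, glutamate and proline had 6 each, while glutamine had 0 of 6 with a shared pair. Values at the 61 members were 2.60 to 8.41 in replicate 1 (median 3.73) and 2.97 to 11.2 in replicate 2 (median 5.26). Their median ratio of replicate 1 to replicate 2 was 0.729, against 0.826 over all members.

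The open site was mostly centred just upstream of the tRNA gene. The centre of the site was a median of 14.5 bp upstream of the gene's 5′ end (quartiles 40.5 bp upstream and 8.5 bp downstream), and was upstream at 46 of 64 genes. The members covered 62 of 64 genes wholly, and 62 had a footprint in both replicates. Footprints covered at most 95.3% of these genes at 23 bp upstream in replicate 1, and 96.9% at 38 bp upstream in replicate 2. Over the 60 bases upstream the mean coverage was 68.3% and 72.2%, and over the first 72 bases of the gene 42.7% and 41.4%. Inside the gene coverage was uneven. It was 0% in both replicates from 14 to 25 bp downstream of the 5′ end. Further in, a second peak reached 90.6% at 60 bp in replicate 1 and 85.9% at 52 bp in replicate 2. The B box letters, chosen for search after these genes were seen, were in 36 tRNA members and in 5 members without a tRNA gene. They were thus in 4.1% of members, against 0.401% of the other distal pairs (179).

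**Figure D2:**
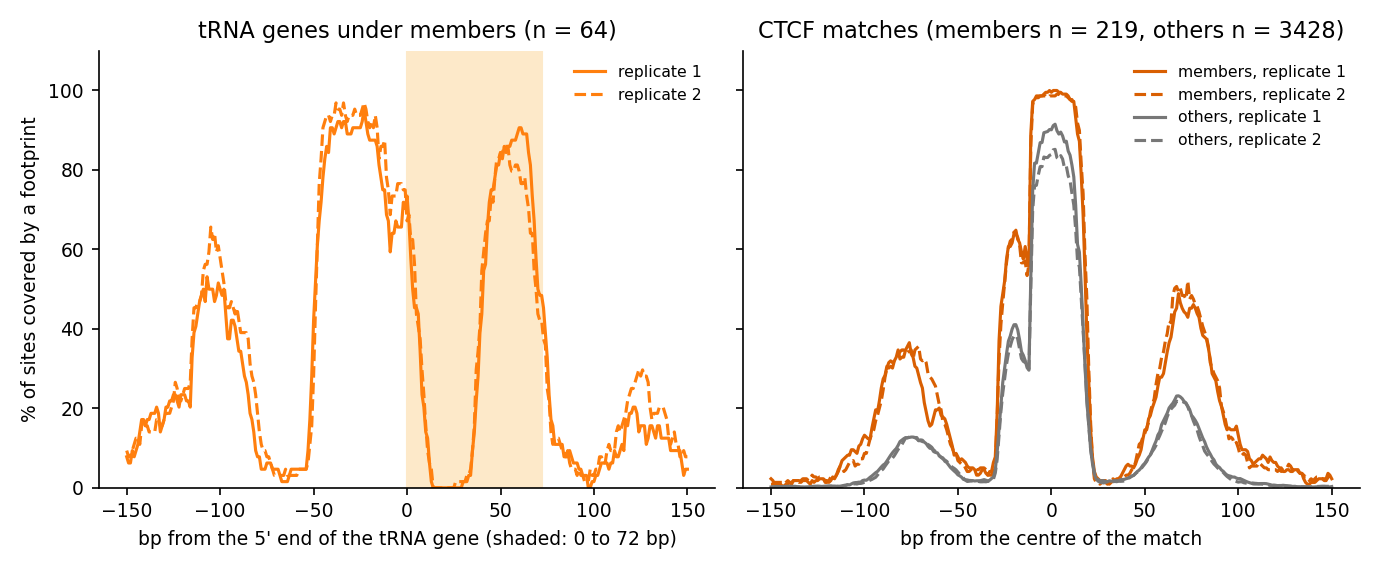
Share of sites covered by an authors' footprint, by distance in bp from the 5′ end of the 64 tRNA genes under members (left) and from the centre of CTCF matches in 219 members and 3428 other pairs (right), for each replicate. At tRNA genes coverage is highest upstream of the gene, at 95.3% and 96.9%, with a second peak inside the gene, at 90.6% and 85.9%. At CTCF matches in members coverage reaches 100% and 99.1%.

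CpG-rich windows had a higher share in members. A 200 bp window was CpG-rich if its GC content exceeded 50% and its observed over expected CpG exceeded 0.6. This held for 33.2% of members (30.3% to 36.2%), against 5.28% of the other pairs. The median GC content was 56.0% in members and 51.5% in the others, and the median CpG ratio 0.494 and 0.260. Of the 332 CpG-rich members, 37 lay over a tRNA gene, 61 within 1 kb of a RefSeq start, 26 had a CTCF match, and 214 had none of these and no repeat. Those 214 had medians of 3.62 in replicate 1 and 4.39 in replicate 2, and a median GC content of 63.0%.

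Members had shorter median distances to genes than the other pairs, and a smaller share inside introns. The median distance was 7447 bp to the nearest GENCODE start, against 13567 bp, and 12064 bp to the nearest protein-coding start, against 28669 bp. Members were between genes in 58.7% (55.6% to 61.8%), against 46.9%, in introns in 33.0%, against 46.5%, and in exons in 8.3%, against 6.56%. RefSeq had a start within 1 kb of 98 members (9.8%, 8.03% to 11.8%), against 4.49% of the other pairs, and 14 of these 98 were tRNA members. Only 0.3% of members were over 50% soft-masked, against 1.97%. Members had a median width of 220 bp, against 260 bp.

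Matches to the motif of CTCF had a higher share in members under the ranking by value, but not when value times peak width was ranked. A match to the 12-base core was in 219 members (21.9%, 19.4% to 24.6%), against 7.67% of the other pairs. Of the 1000 pairs highest in value times width, 5.3% had a match (3.99% to 6.88%), below the 7.98% of all distal pairs, so the direction turned. The search covered the central 200 bp whatever the peak width, and a wider window was not tried for that ranking. With 1 mismatch, an alternative chosen after seeing the data, the shares were 53.0% and 21.2%. The highest CTCF members were nearest Ppp1r1b, which encodes the dopamine signalling protein DARPP-32 (7.21 in replicate 1 and 9.60 in replicate 2), and the chromatin remodeller Chd2 (7.18 and 8.85). The next were nearest Olfr750 (5.42 and 8.73), at the tRNA gene n-TPagg4, and in introns of Camta1 (5.92 and 7.75) and the kinase gene Nuak1 (6.18 and 7.32). Their motifs are among the sequences printed above. Members with a match had medians of 3.11 and 3.81, below the medians of all members.

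Nearly every CTCF match in a member was footprinted. Footprints of both replicates covered 224 of 225 matches in members (99.6%, 97.5% to 100%), against 86.9% in the other pairs (85.7% to 88.0%). The matches lay a median of 10 bp from the centre of the site in members and 13 bp in the others. Coverage at the match reached 100% in replicate 1 and 99.1% in replicate 2 in members, against 91.5% and 85.2%. Footprints come from the same cuts as the peak values, and the part of the number of cuts in this share was not tested.

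The GC box, Egr, CREB, Nrf1 and ETS motifs had higher shares in members. Of 30 motifs searched on both strands, 16 had a higher share in members. The GC box GGGCGGGG of Sp and Klf factors was in 7.6% of members and 1.74% of the other pairs. The share was 3.5% and 0.490% for Egr, 1.9% and 0.309% for the CREB site TGACGTCA, 2.0% and 0.213% for the Nrf1 site GCGCATGCG, and 3.7% and 1.42% for the ETS site CCGGAAG. The others were weighted to the members' GC content in steps of 5%, also chosen after seeing the data. This gave 4.64% for the GC box, 1.95% for Egr, 0.386% for CREB, 0.290% for Nrf1 and 2.17% for ETS. The weighting did not adjust for CpG. All of these motifs hold the letters CG, and CpG-rich windows had a higher share in members. The part of CpG in these shares was not tested.

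The E-box, NFI, AP-1, homeobox and Mef2 motifs had lower shares. The E-box CAGATG, bound by Neurod factors, was in 16.5% of members (14.3% to 18.9%) and 26.6% of the others, or 23.3% weighted. The E-box CAGCTG was in 16.4% and 21.5%, or 24.3% weighted, which made it the largest deficit after weighting. The NFI site TTGGCA was in 11.9% (9.96% to 14.1%) and 20.6%, or 18.7% weighted. The share was 5.0% and 7.21% for the AP-1 site TGANTCA of Fos and Jun, 1.3% and 3.82% for the homeobox site TAATTA, and 0.3% and 1.52% for the Mef2 motif. Weighting gave 6.21% for AP-1, inside the members' interval of 3.73% to 6.54%, 2.41% for homeobox and 0.897% for Mef2. The REST motif was in 0 members (0% to 0.368%) and 0.0895% of the others. A match is a description of letters, not of binding.

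**Figure D3:**
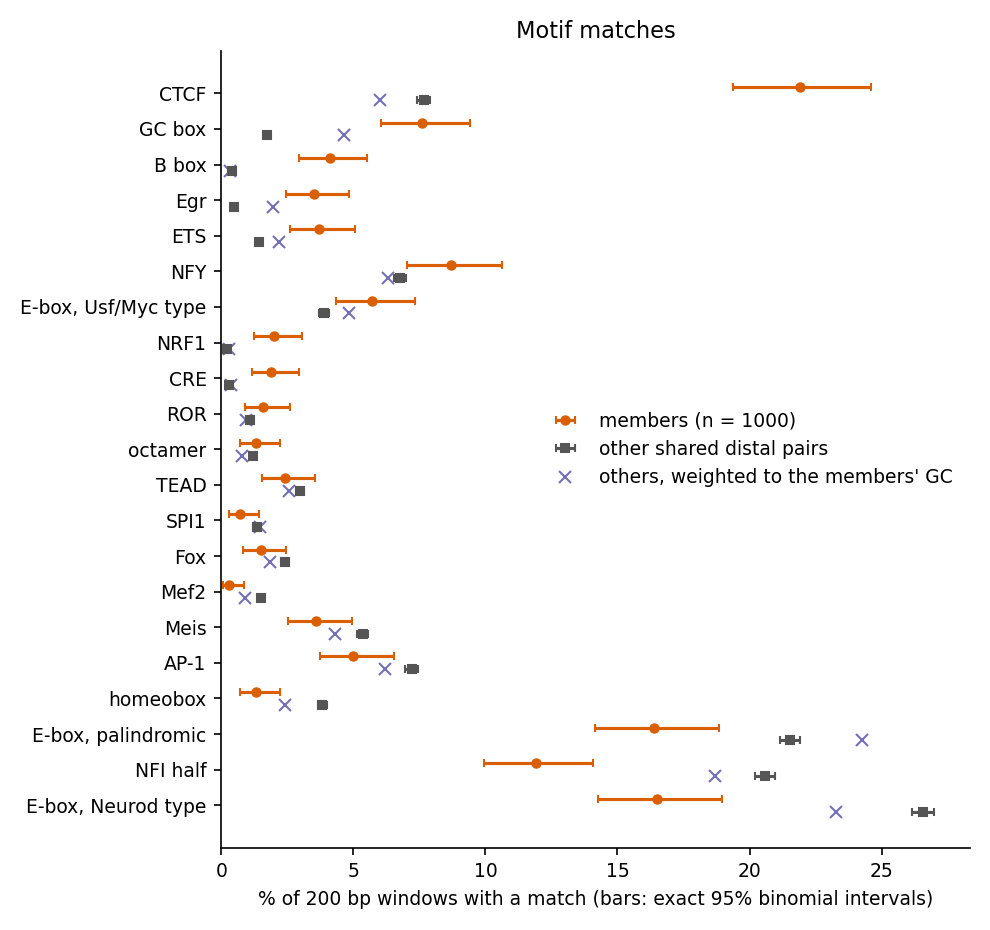
Share of 200 bp windows with a match for each motif that reached 1% in either set, in 1000 members (circles, orange) and the other shared distal pairs (squares, grey), with exact 95% binomial intervals, and in the others weighted to the members' GC content (crosses). Before weighting, CTCF has the largest excess in members, 21.9% against 7.67%, and the Neurod-type E-box the largest deficit, 16.5% against 26.6%; the CTCF direction turns if value times peak width is ranked.

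A search of all 32896 words of 8 bases, both strands merged, was made without named motifs. Over the 979 unrepeated members and 44268 other unrepeated pairs, the words with the largest excess were AGGTGGCG (10.7% of members, 2.15% of others), CAGGGGGC (12%, 3.60%) and GCGCCACC (10.2%, 2.17%). Of the 10 words most in excess, CCCCGCCC (7.46%, 1.74%) is the GC box on the other strand, and GCCCCGCC (7.05%, 1.18%) overlaps it. Of the 105 members with AGGTGGCG, 36 had a CTCF core match. The largest deficits were at ACAGATGG (1.02%, 4.19%), CAGCTGCC (2.66%, 4.72%), CATCTGTC (0.409%, 2.46%) and TCTGCCAA (0.409%, 2.41%), which hold E-box or NFI letters.

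The kinds of site changed with rank. Among ranks 1 to 100, 61.0% were CpG-rich, 17.0% lay over a tRNA gene and 9.0% were repeated. Among ranks 501 to 1000 these shares were 22.8%, 2.8% and 0.8%. CTCF matches ran the other way, with 9.0%, 15.3%, 21.6% and 26.6% over ranks 1 to 100, 101 to 250, 251 to 500 and 501 to 1000. The share was highest just past the members, 28.8% for ranks 1001 to 2000, and was 2.13% in the weakest 13694 pairs. The E-box CAGATG was in 11.0% of the first 100 and 28.6% of the weakest pairs.

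**Figure D4:**
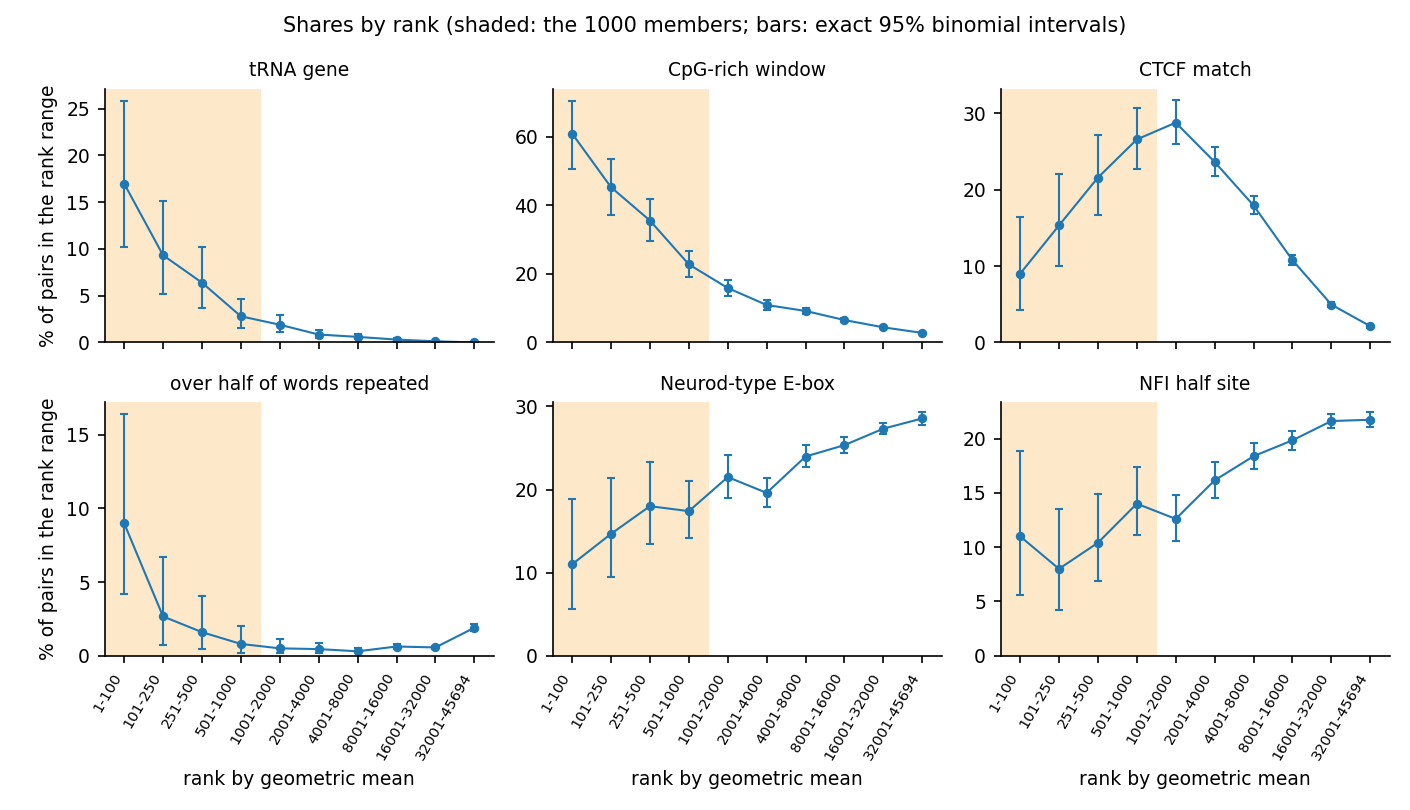
Share of pairs with each feature by rank range of the geometric mean, highest to lowest, with exact 95% binomial intervals and the members' ranges shaded. The tRNA, CpG-rich and repeated shares are lower in each later range of the members, whereas CTCF matches peak at ranks 1001 to 2000, at 28.8%.

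Genes nearest to members were examined by list, with 2.19% of all distal pairs as the background. Immediate early genes, transcribed within minutes of neuronal activity, had 11 members among their 87 pairs (12.6%), at 8 genes of the 20 on the list. Fos had 4.39 in replicate 1 and 4.44 in replicate 2 at a site 18.5 kb upstream, and 3.42 and 5.35 at the site printed above. Nr4a3, an orphan nuclear receptor gene, had 3.83 and 4.61 at a site 1.66 kb upstream, and 2.94 and 3.65 at 2.14 kb. The AP-1 gene Fosb had 3.46 and 4.57 at 10.1 kb upstream, and Nr4a1 had 3.35 and 4.39 at 7.83 kb and 3.42 and 3.64 at 13.4 kb. Egr3 (3.12 and 3.77, 2.17 kb upstream), Junb (2.81 and 3.65, 1.21 kb upstream), Npas4 (2.93 and 3.38) and Egr1 (2.52 and 3.46) had 1 each. The Junb, Egr3 and both Nr4a3 sites thus lay close past the 1 kb limit, and Junb had a RefSeq start within 1 kb. All others lay 7.83 kb or more from the gene's start. Both Nr4a3 sites were neighbours, at chr4:48042721-48043260 and chr4:48043321-48043660, so the 11 sites are not independent.

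These 11 sites shared features that were looked for after their values were seen. CpG-rich windows were in 9 of 11 (81.8%), against 15 of the 76 other pairs of the same genes (19.7%). The Egr motif was in 6 of 11 (54.5%), against 2 of 76 (2.63%), while 3.5% of all members had it. Their median GC content was 67.0%, against 54.0% for the other pairs of these genes.

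Other lists were near the background or had few members. Forebrain transcription factor genes had 10 of 350 pairs (2.86%), with Nfix (5.22 in replicate 1 and 6.94 in replicate 2), Nfia (5.13 and 6.42) and Mef2c (5.36 and 5.10) the highest. Genes of the oligodendrocyte lineage had 5 of 73 (6.85%), at Mog, a myelin glycoprotein gene (4.70 and 4.75), Mobp (3.27 and 3.25), Opalin (3.00 and 3.42, and 3.20 and 3.09) and Mbp (2.66 and 3.59). None of these 5 was CpG-rich and 2 were higher in replicate 1. Pan-neuronal genes had 2 of 91 (2.20%), at Celf4 (2.77 and 3.35) and Rbfox3 (2.89 and 3.16), and glutamatergic genes 1 of 122, at the glutamate transporter gene Slc17a7 (3.79 and 5.01).

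The remaining lists had 1 member or none. Astrocyte genes had 1 of 127, at Id4 (2.60 and 3.68), endothelial and mural genes 1 of 54, at Pdgfrb (3.17 and 4.16), and liver genes, as a list of another tissue, 1 of 24, at Hnf4a (2.89 and 3.35). Dentate granule cell (0 of 90), CA pyramidal (0 of 58), GABAergic (0 of 67), microglia (0 of 34), choroid plexus and ependyma (0 of 20), striated muscle (0 of 25) and lymphocyte genes (0 of 28) had none. With at most 90 pairs per list and 2.19% as the background, these counts of 0 cannot be told apart from the background. Some genes of these 7 lists had no shared distal pair at all. Of the 14 lymphocyte genes, for example, 5 had one.

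**Figure D5:**
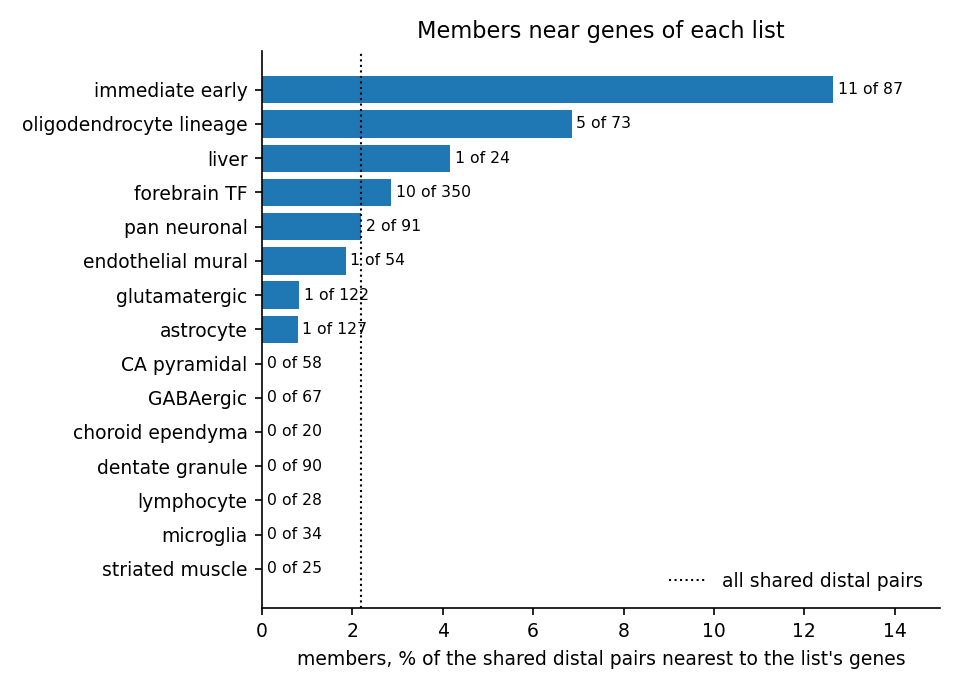
Share of the shared distal pairs nearest to the genes of each list that were members, with the number of members and pairs beside each bar and a dotted line at the 2.19% of all pairs. Immediate early genes stand at 12.6%, the highest, and 7 lists stand at 0.

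Members fell near 866 protein-coding genes, of which 760 had 1 and 18 had 3 or more. Ptma had 6 members, with 3.56 to 8.85 in replicate 1 and 3.99 to 11.7 in replicate 2, 4 of them CpG-rich and 2 with a CTCF match. Klrb1c, a natural killer cell receptor gene, had 5, all CpG-rich, and Cfap126, a cilia gene, had 5, of which 4 lay over tRNA genes. Trim7 had 4, all over tRNA genes. Bahcc1 had 4, and Ppara, the fatty acid receptor gene, had 4. Several genes, among them the gene model Gm21887 and the gene Cstad, had 3 each. Distal pairs that were not members but were nearest the same genes numbered 3 at Ptma, 4 at Klrb1c and 2 at Cfap126. They numbered 3 at Trim7, 9 at Bahcc1 and 11 at Ppara.

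Some members lay near each other. Of the 1000, 263 lay within 50 kb of another, in 108 groups. The 23 groups of 3 or more held 93 members, 25 of them over tRNA genes. Groups were not counted among the other distal pairs, so whether members are more grouped than those was not tested. The 2 largest groups had 8 members each. One spanned 98.2 kb around Ptma (chr1:86434401-86532640) with 5 CpG-rich and 3 CTCF members. The other spanned 87.5 kb beside Per1, Aurkb and Ctc1 (chr11:69036861-69124380) and had 7 members over tRNA genes. By chromosome, members were 2.99% of the distal pairs of chromosome 19, 2.95% of 15 and 2.91% of 11, against 1.05% of X (9 of 859) and 0 of 15 on Y.

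Few members had a tested enhancer of the VISTA collection, which assays elements in mouse embryos. An element overlapped 18 members (1.8%, 1.07% to 2.83%), against 0.588% of the other pairs. Forebrain activity was recorded for 5 of the 18 and for 93 of the 263 other pairs with an element. Those nearest Irf2bp2 (7.52 in replicate 1 and 8.64 in replicate 2) and Bhlhe41 (5.64 and 7.12) had it, whereas the elements at the upstream Fos site and at the Fosb site were recorded in heart.

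The replicates ranked members less alike than the other pairs. Spearman's rho was 0.731 over the 1000 members and 0.897 over the 44694 others, as a description: the sites share 2 libraries, and the members span a narrower range. Each replicate's own 1000 highest distal pairs had 807 in common. The ratio of replicate 1 to replicate 2 had a median of 0.826 in members (quartiles 0.756 and 0.905), against 0.935 in the others. Within 1.5-fold of equality lay 98.3% of members and 90.3% of the others, so by this measure the replicates were closer in members. Members were chosen by the geometric mean of both replicates, which itself favours agreement, so this is a description only. The ratio was highest in an intron of Aida (5.95 in replicate 1 and 3.49 in replicate 2; 1.70), which had 3 footprints in replicate 1 and 0 in replicate 2. The next were Mid1 on X (1.43) and Sppl2c (3.49 and 2.53; 1.38). It was lowest nearest Matn1 (2.26 and 4.48; 0.504), at the tRNA gene n-TIaat5 near Ctc1 (2.74 and 5.04; 0.545) and nearest Katnal1 (2.24 and 4.04; 0.555). The normalization of the value is not stated, so a difference between whole libraries and one between sites cannot be told apart in these ratios.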

How the data were processed

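For each replicate the files were 2 peak lists of different length, footprints, and stretches of raised cut rate with their false discovery rates. Per the deposited file descriptions, each was made from 1 library aligned to mm10, so peaks were called per replicate. No aligner or caller is named in the sources used here. The authors deposited a signal per peak without stating its unit. All its values were whole multiples of a step, 0.00707 in replicate 1 and 0.00815 in replicate 2, within 0.05 of a step. The p-value columns that the authors deposited hold false discovery rates, listed under 0.05 for the cut rate and 0.01 for every footprint.

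The longer list was used, with 115072 peaks in replicate 1 and 95711 in replicate 2, and 285181 and 244137 footprints. Total reads are not given, so depth is unknown. Pairing, distances, motifs and shares were computed in Python 3.11.15 with pandas 2.3.3, numpy 2.4.6 and scipy 1.17.1, and figures with matplotlib 3.10.9. Words of 32 bases were counted on both strands over 21 chromosomes, 44 contigs and the mitochondrial genome of GRCm38.p6, and a word was repeated if it had at least 2 positions. Pairing, word counts and motif search were tested on simulated data. Base content and motifs were taken in a 200 bp window at the centre of the stretch where the paired peaks overlap. A tRNA gene, start or VISTA element came from RefSeq, and starts for the rule from GENCODE M21. Each site was assigned to the protein-coding gene with the nearest start.

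Members, the 15 gene lists (224 genes, all matched) and the motifs were chosen with earlier results of these data known. Named sites were the highest with and without repeated words or a CTCF match, the extremes of the replicate ratio, the threshold's neighbours, the genes with the most members and the highest members of each list. A site that this rule takes is not reported here. Rn4.5s, the VISTA sites, the members shared with Y and the rest of the immediate early and oligodendrocyte sites were named after their values were seen. No test was made, as there was 1 group and values chose the members. Intervals are exact 95% binomial and cover counting error only. Sites of 1 library are not replicates of a condition. The alternatives changed the pairing, the distance, the number of members, the score, word length, motif and base composition.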

Additional observations from a re-analysis of the deposited data

How the results depend on the processing

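Of 105 alternatives over 10 results, 78 were scored as unchanged and 27 as moved. Unchanged meant within the interval of the value reported, except for the number of motifs higher in members. That number has no interval and was 16 of 30 with and without weighting. Sets of 500 and 2000 members are nested in the same ranking, so their 100% overlap with the members was fixed in advance. The shorter peak list gave the same members (100%), all of which stood in it, so its unchanged results are no separate check. Ranking by value times peak width turned the direction of the CTCF result: 5.3% of its members had a match in the central 200 bp, against 7.98% of all distal pairs. Of its members 48.8% were members here, and it gave 98.9% with a footprint in both replicates, 98.8% in the shorter list of both, 52.2% between genes and 15.1% near a RefSeq start. At 2.5 kb from a start, 79.7% were members here, 62.1% lay between genes and 7.5% near a RefSeq start. At 10 kb these were 41.2%, 62.5% and 6.7%, with 26.8% CTCF and 1.3% repeated. With 500 members 3.4% were repeated and 17.2% had CTCF. With 2000 they were 1.3% and 25.35%, and 55.05% lay between genes. Without repeated pairs 97.9% were members here, 0% were repeated, as that choice fixed, and 0.4% lay on X. A reciprocal overlap of 50% kept 98.2%, the lower within-replicate rank 95%, and leaving out a replicate 89.4% to 90.7%. Allowing 1 CTCF mismatch gave 53.0%. With the other pairs weighted to the members' GC content, 2 of 30 motifs, the full NFI and CACC box motifs, changed side. The tRNA, CpG-rich, VISTA, 8-base word and gene list shares, and the motif shares other than CTCF, were not recomputed under other choices of members. Whether they depend on the ranking was therefore not tested. No paired analysis was possible because there was only 1 group. Depth is unknown, so whether low distal sites were missed in 1 replicate was not tested.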
